A study of Schizosaccharomyces pombe with 8 samples.

Results

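The genes of trehalose and glycerol metabolism described here were 8 genes of the fission yeast Schizosaccharomyces pombe, chosen by name in the deposited table: tps1, tpp1, ntp1, gpd1, gpd2, gld1, dak1 and dak2. All 8 were among the 5165 genes with values, and all 8 were among the 5019 genes that had a mean of at least 10 normalized counts and were tested. The study asked how the loss of DNA topoisomerase I, the enzyme that removes supercoils from DNA, alters gene expression under oxidative stress. Wild-type cells (strain 972, h-) and Δtop1 cells (strain RF14, h- top1::kanMX6) were grown in YE5S medium and were either left untreated or exposed to 1 mM hydrogen peroxide (H2O2) for 30 min. Each of the 4 groups held 2 libraries of poly(A) RNA, 8 in all, and the deletion is represented by a single strain. Values are normalized counts, in which the reads on each gene are scaled by a DESeq2 size factor to make the libraries comparable.

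Trehalose is a non-reducing disaccharide that protects proteins and membranes when yeast cells are stressed, and it serves as a store of glucose. It is made from UDP-glucose and glucose 6-phosphate by trehalose-6-phosphate synthase (Tps1) and trehalose-6-phosphate phosphatase (Tpp1), and it is split by the neutral trehalase Ntp1. Glycerol is the main compatible solute of fission yeast: glycerol-3-phosphate dehydrogenases (Gpd1 and Gpd2) divert dihydroxyacetone phosphate from glycolysis towards glycerol, while glycerol dehydrogenase (Gld1) and the dihydroxyacetone kinases (Dak1 and Dak2) return glycerol to glycolysis. In S. pombe the mitogen-activated protein kinase Sty1 and the bZIP factor Atf1, which binds CRE-like sites, drive a large part of the transcription programme that follows stress.

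Between 16090015 and 19899720 reads fell on genes in a library, and 1 read was worth 0.815 to 1.24 normalized counts. The members had from 217 reads (gld1) to 111280 reads (gpd1) in a library. The deleted gene, top1, had 1967 and 2150 normalized counts in untreated and 2013 and 2513 in treated wild-type cells. In Δtop1 cells it had 309 and 286 untreated and 244 in either treated library, so every library fitted its strain label (log2 difference -2.79 untreated and -3.20 treated, adjusted p = 1.5e-05 and 6.2e-06, limma). Markers of the M and the P mating type were both read in all libraries, so they did not single out the h- type that the paper gives for both strains.

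In ASM294v3 coordinates (RefSeq) the genes lie apart from each other on chromosomes I and II, and each has a single exon. On chromosome I are tps1 (SPAC328.03, 3479149 to 3481305, plus strand), tpp1 (SPAC19G12.15c, 4074998 to 4077857, minus strand), gpd2 (SPAC23D3.04c, 4342230 to 4343927, minus strand), gld1 (SPAC13F5.03c, 2174641 to 2176572, minus strand), dak1 (SPAC22A12.11, 1176920 to 1178897, plus strand) and dak2 (SPAC977.16c, 64559 to 66679, minus strand). On chromosome II are ntp1 (SPBC660.07, 206581 to 209641, plus strand) and gpd1 (SPBC215.05, 4035566 to 4037342, plus strand). Only dak2 lies within 100 kb of a chromosome end, at 64.6 kb.

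The promoters of 4 members are shown because the genes behind them gave the contrasts described next: ntp1 had the largest log2 change with H2O2 of the 8, gpd1 was the most abundant member, and gpd2 and gld1 were the members that differed between the treated strains. Each run is the 250 bases before the annotated transcript start in ASM294v3, written 5′ to 3′ on the strand of the gene, with capitals for a match to TGACGT (the CRE-like sequence, also read as ACGTCA on the other strand) or to GAANNTTC (the core of a heat shock element).
ntp1 promoter, II:206331-206580, plus strand: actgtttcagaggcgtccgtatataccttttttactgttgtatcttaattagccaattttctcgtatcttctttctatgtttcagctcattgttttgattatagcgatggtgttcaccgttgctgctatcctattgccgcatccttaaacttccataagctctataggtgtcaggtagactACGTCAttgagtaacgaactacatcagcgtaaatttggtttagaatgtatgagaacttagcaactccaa
gpd1 promoter, II:4035316-4035565, plus strand: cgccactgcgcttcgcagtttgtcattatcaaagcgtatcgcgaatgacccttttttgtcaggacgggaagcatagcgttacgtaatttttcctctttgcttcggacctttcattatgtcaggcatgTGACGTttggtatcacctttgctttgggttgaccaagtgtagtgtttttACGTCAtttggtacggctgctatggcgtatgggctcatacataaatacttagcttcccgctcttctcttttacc
gpd2 promoter, I:4343928-4344177, minus strand: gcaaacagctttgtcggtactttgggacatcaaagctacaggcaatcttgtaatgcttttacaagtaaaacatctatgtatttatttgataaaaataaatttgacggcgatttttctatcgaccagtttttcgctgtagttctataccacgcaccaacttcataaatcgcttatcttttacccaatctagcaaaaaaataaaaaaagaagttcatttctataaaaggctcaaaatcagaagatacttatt
gld1 promoter, I:2176573-2176822, minus strand: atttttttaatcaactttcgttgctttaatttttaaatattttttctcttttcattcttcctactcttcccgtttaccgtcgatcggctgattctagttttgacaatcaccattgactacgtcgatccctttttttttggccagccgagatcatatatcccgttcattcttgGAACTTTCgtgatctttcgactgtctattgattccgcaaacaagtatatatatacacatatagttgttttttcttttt

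Over all 8 members, TGACGT was found on either strand in 2 promoters, those of ntp1 and gpd1, and in 285 of the 5128 promoters of the annotation (5.56%). The gpd1 promoter held it at 123 and 74 bases before the start, and the ntp1 promoter at 69 bases before it. GAANNTTC was found in 1 member, gld1, at 78 bases before the start, and in 9.61% of all promoters. CCCCTC, the sequence bound by Rst2-type zinc fingers, and TTAGTCA, a Pap1-type site, were in none of the 8 windows and in 1.70% and 3.86% of all promoters. None of the 4 motifs overlaps another in these windows, and the gpd2 promoter matched none of them. A match or its absence describes these letters only.

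With H2O2 the trehalose genes and gpd1 rose in both strains, the genes that return glycerol to glycolysis gave mixed values, and the strains parted in gpd2 and gld1. The summed share of the 8 members in all normalized counts was 0.284% in both untreated wild-type libraries and 1.23% and 1.18% in the treated ones. In Δtop1 cells it was 0.340% and 0.300% untreated and 1.30% and 1.24% treated. The measurement is on RNA of whole cultures, so a change in every cell and a change in the number of cells that express a gene cannot be told apart.

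**Figure D1:**
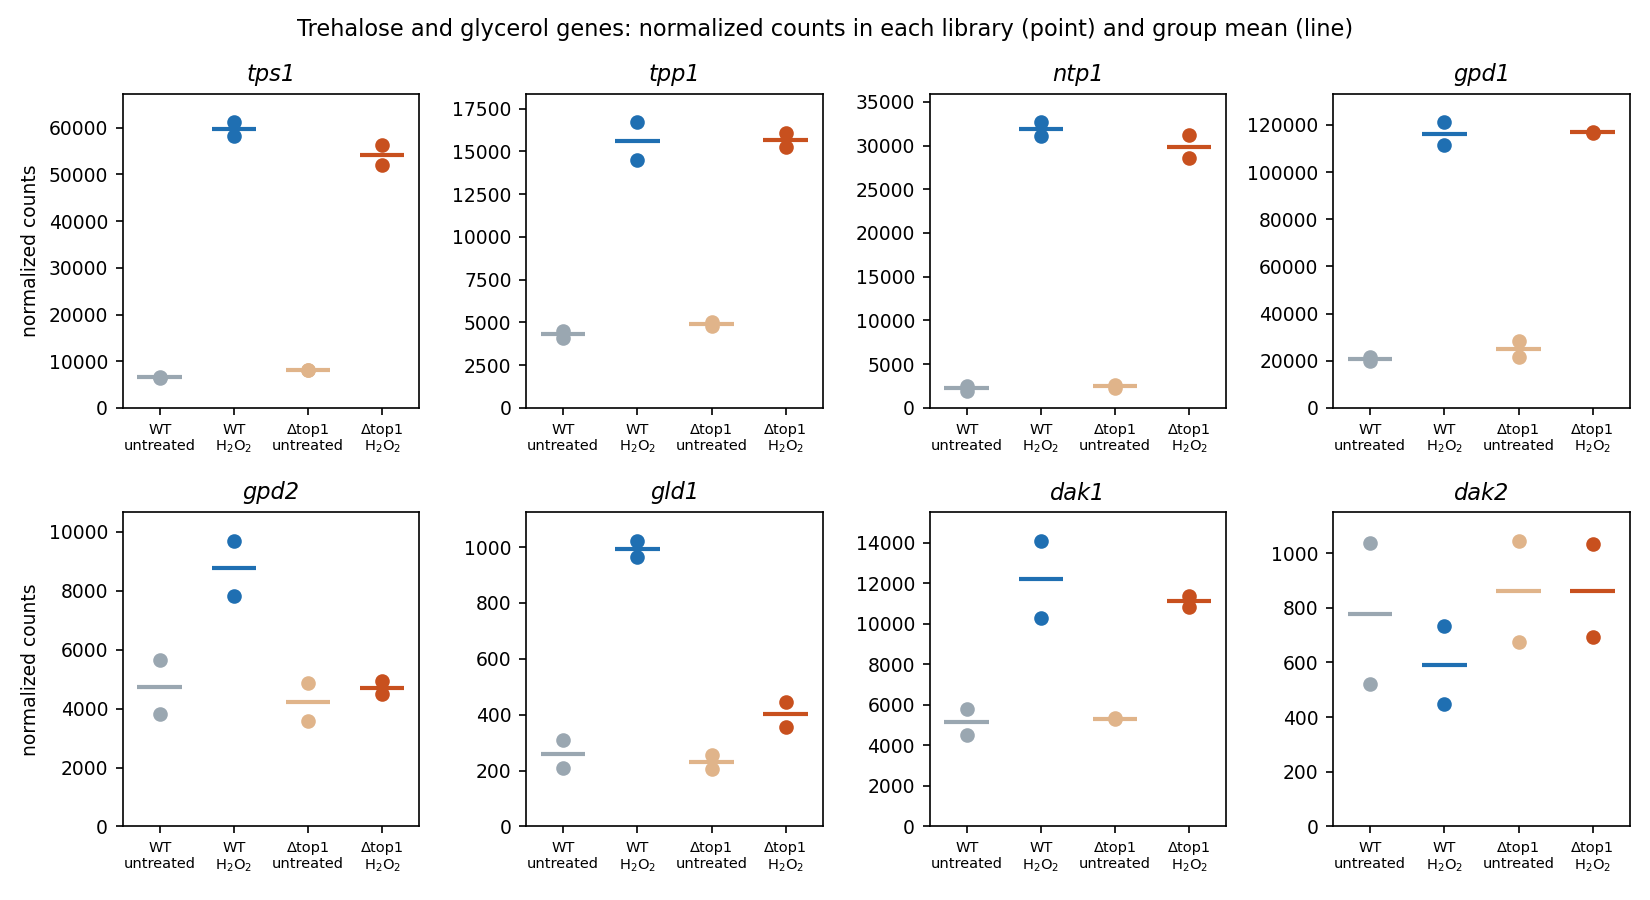
Normalized counts (vertical axis, linear, from 0, with its own scale for each gene) of the 8 members in each of the 8 libraries (points), with the mean of each group of 2 as a line. For tps1, tpp1, ntp1, gpd1 and dak1 the treated libraries of both strains stand above all untreated ones, for gld1 the treated wild-type libraries (964 and 1023) stand above the other 6 libraries, and for dak2 the 4 groups overlap.

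Among the trehalose genes, tps1, which encodes the synthase, had 6462 and 6585 normalized counts in untreated and 58286 and 61195 in treated wild-type cells. The Δtop1 libraries held 8194 and 8104 untreated and 52111 and 56385 treated. The treated libraries lay well above the untreated ones in both strains. The change was 9.15-fold in wild-type (log2 3.19, SE 0.11, adjusted p = 1.1e-07, limma on log2 of the normalized count plus 1, on which all changes here are given) and 6.65-fold in Δtop1 cells (log2 2.73, SE 0.11, adjusted p = 2.4e-07). By the size of the change in wild-type it ranked 87 from the top of 5019 genes.

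The phosphatase gene tpp1, whose product removes the phosphate from trehalose 6-phosphate, had 4101 and 4515 normalized counts in untreated and 14517 and 16708 in treated wild-type cells. In Δtop1 cells the values were 5049 and 4775 untreated and 15258 and 16082 treated. It rose 3.62-fold in wild-type and 3.19-fold in Δtop1 cells (log2 1.86 and 1.67, SE 0.10 for both, adjusted p = 1.7e-06 and 2.4e-06, limma). The second enzyme of synthesis changed less than the first in either strain, in wild-type 3.62-fold beside 9.15-fold for tps1.

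The largest change of the 8 was in the gene for breakdown. The neutral trehalase gene ntp1 had 1983 and 2520 normalized counts in untreated and 31075 and 32677 in treated wild-type cells. Untreated Δtop1 cells held 2298 and 2625, and treated ones 28555 and 31164. It rose 14.2-fold in wild-type (log2 3.83, SE 0.13, adjusted p = 1.2e-07, limma), rank 46 of 5019, and 12.14-fold in Δtop1 cells (log2 3.60, SE 0.13, adjusted p = 1.4e-07). Genes for making and for splitting trehalose rose in the same cultures.

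Of the genes for glycerol synthesis, gpd1 was the most abundant member per length in every group. It had 21441 and 20000 normalized counts in untreated and 121162 and 111294 in treated wild-type cells, and 28231 and 21605 untreated and 117038 and 116608 treated in Δtop1 cells. It rose 5.61-fold in wild-type and 4.73-fold in Δtop1 cells (log2 2.49 and 2.24, SE 0.18 for both, adjusted p = 5.9e-06 and 9.5e-06, limma).

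Its paralog gpd2 gave smaller values. It had 3815 and 5656 normalized counts in untreated and 9702 and 7817 in treated wild-type cells, so the treated pair lay above the untreated pair. The change was 1.87-fold (log2 0.91, SE 0.21, adjusted p = 0.0050, limma), under the 2-fold required for a call. With a wild-type library left out it ran from 0.62 (without replicate 1 of untreated) and 0.75 (without replicate 1 of treated) to 1.06 (without replicate 2 of treated) and 1.19 (without replicate 2 of untreated), the last 2 past 2-fold. It was 0.53 after rescaling to the same total and 0.36 with quantile normalization, where the adjusted p was 0.126. In Δtop1 cells gpd2 had 3576 and 4882 untreated and 4484 and 4924 treated, and the groups overlapped (log2 0.17, SE 0.21, 95% interval -0.31 to 0.65, adjusted p = 0.498). The sign of this small value turned under the other scalings tried. Coding sequences of gpd1 and gpd2 are 61.9% identical in bases and share no word of 31 bases.

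Among the genes of glycerol use, gld1, which encodes the NAD-dependent glycerol dehydrogenase, had the lowest level of the members per length in untreated cells of either strain. It had 208 and 309 normalized counts in untreated and 964 and 1023 in treated wild-type cells, and rose 3.91-fold (log2 1.97, SE 0.20, adjusted p = 4.9e-05, limma). In Δtop1 cells it had 207 and 254 untreated and 357 and 445 treated. There the treated pair also lay above the untreated pair, but the change of 1.73-fold (log2 0.79, SE 0.20, adjusted p = 0.0079) did not reach 2-fold.

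The kinase gene dak1, whose product phosphorylates dihydroxyacetone, had 4494 and 5788 normalized counts in untreated and 10308 and 14114 in treated wild-type cells. In Δtop1 cells it had 5338 and 5285 untreated and 10855 and 11383 treated. It rose 2.36-fold in wild-type and 2.09-fold in Δtop1 cells (log2 1.24 and 1.07, SE 0.16 for both, adjusted p = 0.00021 and 0.00053, limma). These values sit close to the 2-fold threshold: with quantile normalization they were 0.70 and 0.80 on the log2 scale and no longer called.

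Its paralog dak2 did not pass the test in either strain. It had 521 and 1036 normalized counts in untreated and 449 and 734 in treated wild-type cells, and 675 and 1046 untreated and 694 and 1031 treated in Δtop1 cells. All groups overlapped, and the log2 changes were -0.36 (95% interval -1.21 to 0.50, adjusted p = 0.425) in wild-type and 0.01 (95% interval -0.85 to 0.87, adjusted p = 0.984) in Δtop1 cells (limma). Of the 31-base words of the dak2 transcript 20.3% occur in another gene, against at most 0.616% for the other members. These words were compared on either strand, and they are those of the 454 bases by which dak2 overlaps SPAC977.17 on the opposite strand. Outside this overlap dak2 shares no such word with another gene. The libraries were stranded, but whether the counting of reads used strand is not stated. How far the overlap touches the dak2 values was not tested. Coding sequences of dak1 and dak2 share no word of 31 bases. In all 4 groups the library numbered 2 held the higher dak2 value, as it did for SPAC977.17, ntp1 and gld1. For gpd1 the order was the opposite, with the library numbered 1 higher in all 4 groups.

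**Figure D2:**
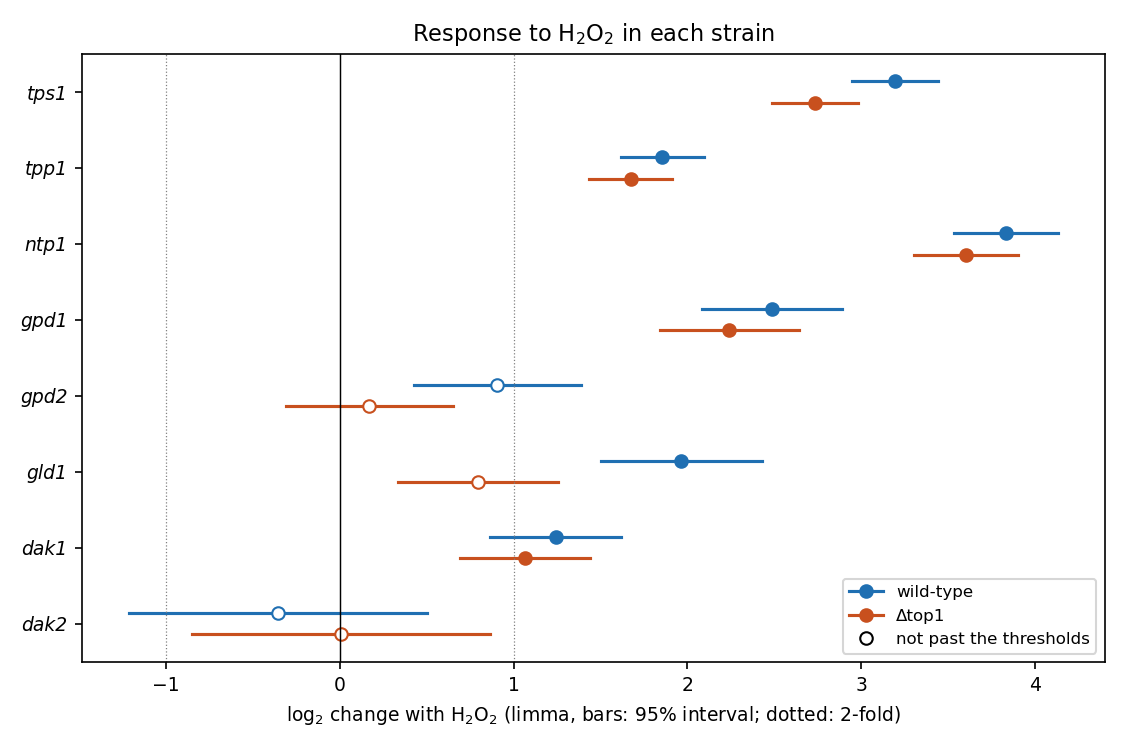
Log2 change with H2O2 (horizontal axis) of each member in wild-type and Δtop1 cells, with its 95% interval from limma as a bar, filled where the gene passed an adjusted p under 0.1 and 2-fold (dotted lines). The bars of tps1, tpp1, ntp1, gpd1 and dak1 lie to the right of 0 in both strains with filled points, gld1 is filled in wild-type only (log2 1.97 against 0.79), and both bars of dak2 cross 0.

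Altogether, 6 of the 8 members were called higher with H2O2 in wild-type, where 12.2% of all genes tested were, and 5 of 8 in Δtop1 cells, where 12.6% were. None was called lower in either strain. With no minimum on the fold, 7 members passed an adjusted p of 0.1 upwards in wild-type and 6 in Δtop1 cells, beside 36.4% and 35.9% of all genes. One of the 7, gpd2, did not pass with quantile normalization. The same 5, tps1, tpp1, ntp1, gpd1 and dak1, were called higher in both strains, as were 9.92% of all genes. The median log2 change of the members was 1.91 in wild-type and 1.37 in Δtop1 cells, and that of all genes tested was 0.00 in either strain.

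Per kb of spliced transcript, the order of the members shifted with treatment. In untreated wild-type cells gpd1 (11660 normalized counts per kb) stood first, followed by tps1 (3024), gpd2 (2789) and dak1 (2599), whose neighbours in this order overlapped between replicates, and then by tpp1 (1506), ntp1 (735), dak2 (367) and gld1 (134). In treated wild-type cells gpd1 (65407) and tps1 (27696) kept their places and ntp1 (10414) came next, above dak1 (6173), tpp1 (5459) and gpd2 (5159), which overlapped from one to the next. Below them gld1 (514) stood above dak2 (279). In Δtop1 cells the first 3 places with H2O2 were those of wild-type, at 65742, 25150 and 9755 normalized counts per kb. There gpd2 (2771) lay below tpp1 (5479) without overlap, and gld1 (207) lay below dak2 (407) as in untreated cells (119 and 406). Neighbours in these orders other than those named did not overlap, except dak1 and gpd2 in untreated and dak1 and tpp1 in treated Δtop1 cells.

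Without treatment, no member differed between the strains by the thresholds used (adjusted p under 0.1 and 2-fold). Few genes did: 0.179% of all genes tested were higher and 0.239% lower in Δtop1 cells. Both Δtop1 libraries had more tps1 (8194 and 8104) than both wild-type libraries (6462 and 6585), a difference of 1.25-fold with an adjusted p of 0.727 (log2 0.32, 95% interval 0.08 to 0.57, limma). Over the 8 members the log2 difference ran from -0.15 (gpd2) to 0.32 (tps1).

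Between the treated strains, gpd2 and gld1 were lower in Δtop1 cells and the other 6 members were not called. For gpd2 the treated Δtop1 libraries (4484 and 4924 normalized counts) lay below both treated wild-type libraries (9702 and 7817). The difference was 1.85-fold (log2 -0.89, SE 0.21, adjusted p = 0.0238, limma). Without replicate 1 of treated Δtop1 cells it was -0.82 on the log2 scale with an adjusted p of 0.149. For gld1 the treated Δtop1 libraries (357 and 445) lay below both treated wild-type libraries (964 and 1023), a 2.49-fold difference (log2 -1.32, SE 0.20, adjusted p = 0.0059) that kept its call without any single library. By this difference gld1 ranked 33 and gpd2 81 from the lowest of 5019 genes.

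These 2 of 8 members called lower stand beside 4.52% of all genes tested, called at an adjusted p under 0.1 and 1.5-fold, while 4.86% were higher and no member was. The log2 differences of tpp1 and gpd1 were 0.01 each, with 95% intervals of -0.23 to 0.25 and -0.39 to 0.41. Those of tps1, ntp1 and dak1 were -0.14, -0.10 and -0.12, and each of these turned positive under at least 1 of the other scalings. For dak2 the difference was 0.56 with an interval of -0.30 to 1.42, and from 0.20 to 0.91 with a library left out.

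**Figure D3:**
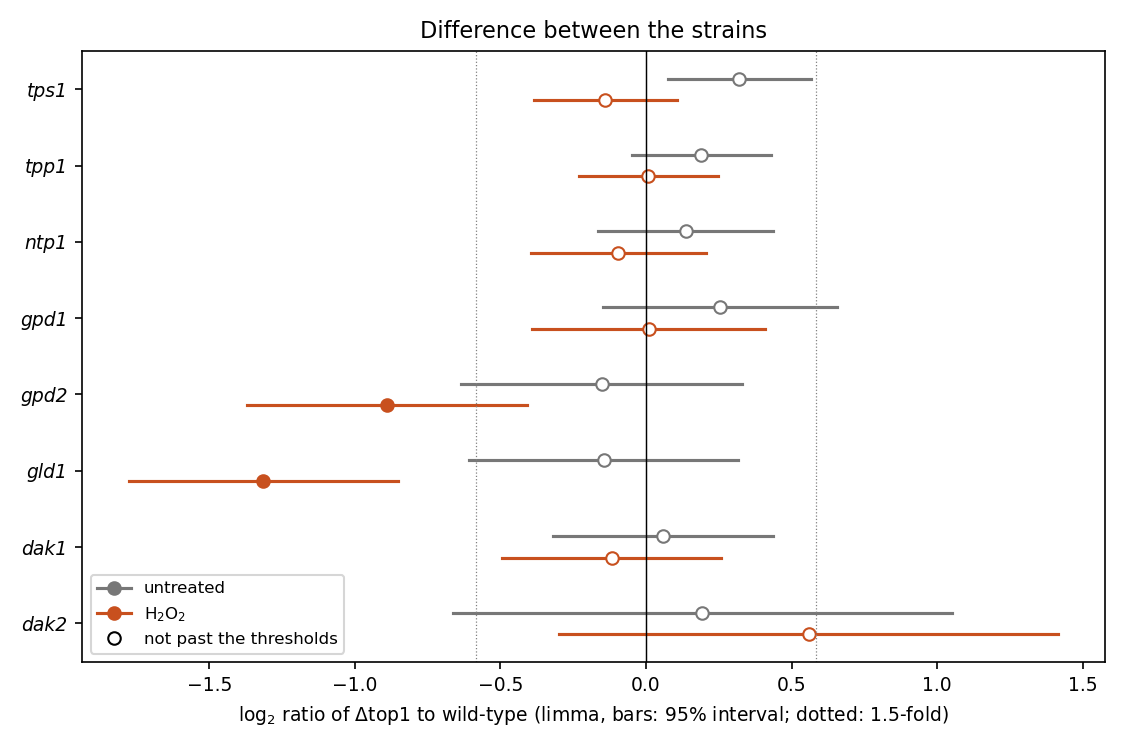
Log2 ratio of Δtop1 to wild-type cells (horizontal axis) for each member, untreated and with H2O2, with the 95% interval from limma as a bar, filled where the thresholds were passed (dotted lines mark 1.5-fold, used for treated cells, while untreated cells required 2-fold). The 2 filled points are gpd2 (-0.89) and gld1 (-1.32) in treated cells, and no untreated point is filled.

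The test of the difference between the responses, the interaction of strain and treatment, was passed by gld1 alone of the 8 members. Its log2 response was 1.17 smaller in Δtop1 than in wild-type cells (interaction -1.17, SE 0.28, adjusted p = 0.0894, limma), beside 1.83% of all genes called lower and 2.13% called higher. The call is close to the threshold of 0.1 and was held by only 2 of the 8 fits with a library left out. The adjusted p was 0.0753 without replicate 2 of untreated wild-type and 0.0819 without replicate 2 of treated Δtop1. It was 0.179 without replicate 1 of untreated wild-type, 0.133 and 0.148 without replicates 1 and 2 of treated wild-type, 0.195 and 0.303 without replicates 1 and 2 of untreated Δtop1, and 0.268 without replicate 1 of treated Δtop1.

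For gpd2 the interaction was -0.74 (SE 0.30, adjusted p = 0.226), so its responses were not shown to differ, although the treated strains did. For tps1 it was -0.46 (SE 0.15, adjusted p = 0.166, limma), and it was called with DESeq2 (adjusted p = 0.0265) and when replicate 2 of treated Δtop1 was left out (0.0908). In 7 of the 8 members the interaction was negative, from -0.18 to -1.17, although tpp1, ntp1 and dak1 turned positive with quantile normalization. That of dak1 was also positive without replicate 1 of untreated (0.0061) or replicate 2 of treated wild-type (0.050). The median of the members was -0.24 beside 0.01 for all genes tested. The 8 values rest on the same libraries, so their signs are not independent. The interaction of dak2 was 0.37 with a 95% interval of -0.85 to 1.58. The adjusted p of tpp1, ntp1, gpd1, dak1 and dak2 lay between 0.531 and 0.753.

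Of the 3 other trehalose-phosphate synthase genes of the annotation, 2 were called higher with H2O2 in both strains. SPAC22F8.05 had 970 and 1173 normalized counts in untreated and 37563 and 37858 in treated wild-type cells (log2 5.14, SE 0.10, adjusted p = 1.2e-08, limma), and 1270 and 1247 untreated and 40481 and 40719 treated in Δtop1 cells (5.01, adjusted p = 1.2e-08). Its 35.3-fold change in wild-type was larger than that of any of the 8 members. For tps3 (SPACUNK4.16c) the changes were 6.76-fold and 4.19-fold (SE 0.20 on the log2 scale). The remaining gene, tps2 (SPAC3G6.09c), gave 0.06 and 0.18 and was not called in any comparison. None of the 3 was called between the strains or in the interaction.

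Of 5 other genes of glycerol and glycerolipid metabolism, gut2 and ayr1 were called higher with H2O2 in both strains. The gut2 gene, for the mitochondrial FAD-linked glycerol-3-phosphate dehydrogenase, had 1511 and 1743 normalized counts in untreated and 36777 and 42178 in treated wild-type cells (log2 4.60, SE 0.11, adjusted p = 3.1e-08, limma). In Δtop1 cells it had 1658 and 1637 untreated and 40074 and 43893 treated (4.67, adjusted p = 2.8e-08). For ayr1, the reductase of acyldihydroxyacetone phosphate, the log2 changes were 2.37 and 2.33. The acyltransferase gene gup1 was lower in treated wild-type cells (log2 -1.24, adjusted p = 3.3e-05) and gave -0.87 in Δtop1 cells, short of 2-fold. The acyltransferase gene sct1 was not called.

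SPAC977.17, of the MIP channel family and the antisense neighbour of dak2, was not called with treatment in either strain and was higher in treated Δtop1 than in treated wild-type cells. It had 2091 and 2604 normalized counts against 1226 and 1650 (log2 0.71, SE 0.20, adjusted p = 0.0388, limma). The call was lost without replicate 1 of treated wild-type (adjusted p = 0.155) or without replicate 1 or 2 of treated Δtop1 (0.106 and 0.163).

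The substrate list held 11 genes that supply the substrates or, for tdh1 and gpd3, draw on triose phosphate. Of these, 4 were called higher with H2O2 in wild-type and 2 in Δtop1 cells, beside 12.2% and 12.6% of all genes. The wild-type count was 2 with the totals or the upper quartiles made equal and 1, fyu1, with quantile normalization, where pgm1 gave 0.99. The phosphoglucomutase gene pgm1 and fyu1, a gene for UTP-glucose-1-phosphate uridylyltransferase, lead from glucose 6-phosphate to UDP-glucose and were called in both strains (log2 1.46 and 1.39 for pgm1, 2.02 and 1.94 for fyu1). In wild-type only, the call was also passed by pgi1, for glucose-6-phosphate isomerase (log2 1.05, and 0.85 in Δtop1), and by gpd3, for glyceraldehyde-3-phosphate dehydrogenase (1.13, and 0.04 in Δtop1). The wild-type calls of pgi1 and gpd3 are close to 2-fold and each was lost without either of 2 libraries, as given with the processing alternatives. Of the 31-base words of the gpd3 transcript 23.99% occur in another gene, and of those of fyu1 10.3%.

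No gene of the substrate list was called between the strains in either condition or in the interaction. All 11 interaction values were negative, from -0.07 (pgm1) to -1.09 (gpd3, adjusted p = 0.193, limma), but 7 were with quantile normalization, 9 after rescaling to the same total, 9 without replicate 1 of treated Δtop1, and 10 without replicate 2 of treated or replicate 1 of untreated wild-type. Their median was -0.35 beside 0.01 for all genes tested. The 7 substrate genes not called with H2O2 in either strain were hxk1, hxk2, pfk1, fba1, tpi1, tdh1 and ugp1.

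**Figure D4:**
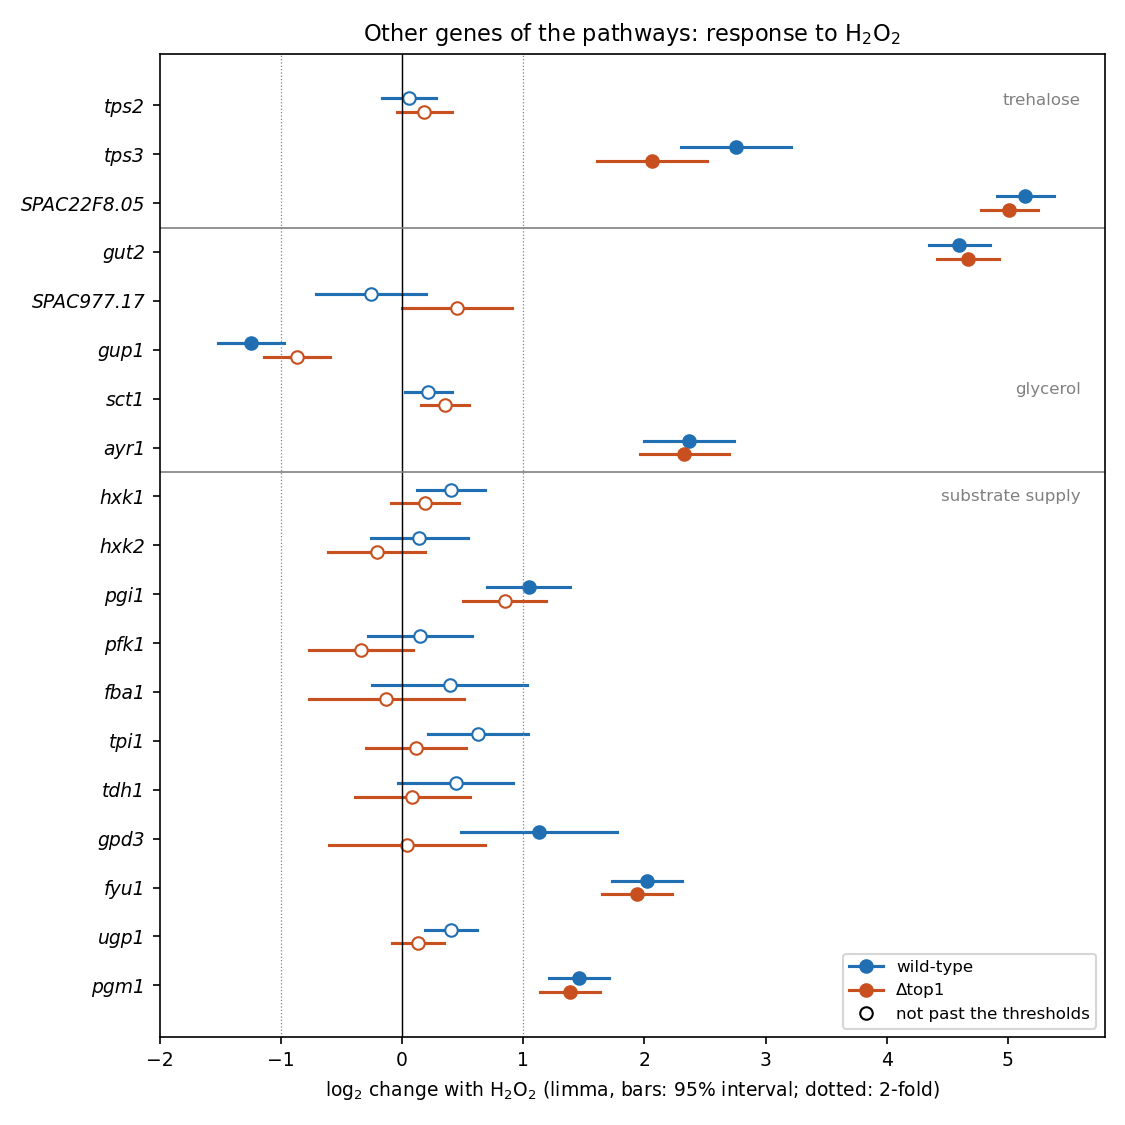
Log2 change with H2O2 (horizontal axis) in wild-type and Δtop1 cells of 19 other genes of the pathways, set out as trehalose, glycerol and substrate supply genes from top to bottom, with 95% intervals from limma and filled points where the gene passed an adjusted p under 0.1 and 2-fold (dotted lines). SPAC22F8.05 and gut2 lie farthest to the right, above 4.5 in both strains, and gup1 is the only gene with a filled point to the left of 0.

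The genes whose values over the 8 libraries were most like those of tps1, by the root mean square difference of centred log2 values among 5018 genes, were exg3 (0.130), tam11 (0.149) and cao2 (0.157). For gpd1 they were SPAC16A10.01 (0.0855), msy2 (0.109) and SPBC14F5.10c (0.117). Among the members, gpd1 stood at rank 46 of likeness to tps1, ntp1 at 76 and tpp1 at 173, while dak2 stood at 3224. These ranks rest on 8 libraries that share their treatment and strain groups.

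Of the 16 genes next to the members, 2 rose and 2 fell with H2O2 in both strains, shares near those of all genes (12.2% higher and 11.3% lower in wild-type, 12.6% and 10.8% in Δtop1 cells). The gene to the right of tps1, spg4, gave log2 changes of 2.18 and 2.19 in wild-type and Δtop1 cells, and the gene to the left of ntp1, wwm2, gave 3.08 and 2.99. The gene to the right of tpp1, adg2, gave -2.02 and -2.43, and SPBC215.06c, to the right of gpd1, gave -1.82 and -2.29. The neighbours of gpd2 and gld1, the members that differed between the treated strains, were not called in any comparison. For gld1 these are ptr6 and vta1, whose differences between the treated strains were 0.01 and -0.19 on the log2 scale. At tpp1, the neighbour its3 overlaps the gene by 39 bases on the other strand and passed the interaction test (log2 -0.58, adjusted p = 0.0700, limma).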

How the data were processed

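Per the labels and the methods of the paper, RNA extracted with hot phenol was poly(A)-selected, made into stranded libraries and sequenced as single reads of 50 bases. The methods name FastQC 0.11.9, Salmon 1.2.1 on the ASM294v2 transcriptome and DESeq2, while the submitters' processing notes list FastQC, Trimmomatic, STAR, HTSeq and DESeq2, so which tool assigned reads to genes is not settled by the sources used here. The deposited signal is normalized counts, reads scaled by DESeq2 size factors, with 1 column for each library. Whole reads were recovered for 99.98% of values (tolerance 0.01 reads).

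The main test was limma 3.58.1 in R 4.3.3 on log2 of the normalized count plus 1, with 4 group means over all 8 libraries, moderated variances with a trend, and Benjamini-Hochberg adjustment over 5019 genes, two-sided. A call required an adjusted p below 0.1 and a change of 2-fold, or of 1.5-fold between the treated strains, and no minimum fold for the interaction. An exact permutation test of 2 against 2 libraries cannot give a p below 0.333. The members, the lists, the thresholds and the tests were chosen with earlier results of these data known. The named genes are the members, top1, the listed genes of the pathways, the gene next to each member on either side and the 3 genes most like tps1 and gpd1 in pattern. Alternatives were pseudocounts of 0.5 and 5, no minimum or a minimum of 50, 3 other scalings, limma without the trend, a replicate block, an adjusted p under 0.05, edgeR 4.0.16 and DESeq2 1.42.0 on recovered reads, a fit of only the groups compared, and each library left out. The fits were tested on simulated data. Gene identifiers were matched by name to RefSeq ASM294v3 (5129 of 5165), from which all positions and sequences come, and identity between paralogs was computed on coding bases instead of proteins.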

Additional observations from a re-analysis of the deposited data

Results flagged for a closer look

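The response of gld1 differed between the strains by the test of the interaction (log2 -1.17 as Δtop1 minus wild-type, adjusted p = 0.0894, limma), with responses of 1.97 in wild-type and 0.79 in Δtop1 cells. The call is close to the threshold of 0.1. It was lost with no minimum (adjusted p = 0.147, limma), with quantile normalization (0.124) and without the trend (0.124). With a library left out the interaction ran from -1.45 to -0.89.

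For tps1 the difference between the strains had opposite signs in the 2 conditions without overlap of the replicates. Untreated, both Δtop1 libraries were above both wild-type libraries (log2 0.32), and with H2O2 both were below them (log2 -0.14, 95% interval -0.39 to 0.11). The treated difference was positive after rescaling to the same total (0.011) and with quantile normalization (0.050), so the opposite signs depend on the scaling. The interaction, which tests whether the responses of the strains differ in size, was -0.46 with an adjusted p of 0.166 (limma). It was called at the same size with the replicate block (adjusted p = 0.0606) and with DESeq2 (0.0265), and without replicate 2 of treated Δtop1 (-0.52, adjusted p = 0.0908).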

How the results depend on the processing

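Each log2 change of a member was recomputed under the alternatives, 832 values in all: 776 kept their direction and side of the threshold, 17 lost a call, 5 gained one and 34 changed sign, none of them a called value. Many of the 832 could not change sign. Several alternatives alter only the error, the genes tested or the threshold, and leaving out a library outside a comparison leaves its log2 change as it was. The share that stayed the same is thus not a measure of stability. With 2 libraries per group the error is poorly known. The fewest reads on a member in a library were 217 (gld1), and whether depth limits a member was not tested. Rescaling to the same total moved the median of all genes by -0.37 in wild-type and -0.20 in Δtop1 cells with H2O2, and by 0.16 between the treated strains. dak1 then lost its 2-fold call (log2 0.87 and 0.86), as with the same upper quartile (0.95 and 0.84, median of all genes -0.29 and -0.23), but not relative to that shift.

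The number of members lower in the interaction, 1, was 0 with no minimum, with quantile normalization, without the trend and at an adjusted p under 0.05, and 2 (gld1 and tps1) with DESeq2. Leaving out a library gave 0 to 2. Between the treated strains leaving out a library gave 1 or 2 members lower.

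The replicate numbers are not stated to mark a shared batch or day. Between groups, libraries with the same number deviated from the mean of their group with correlations across genes of 0.066 to 0.617. With the replicate block the interaction was passed by 2 members, gld1 (adjusted p = 0.0101, limma) and tps1 (0.0606), and the calls of members in the other comparisons did not change. For dak2, higher in the library numbered 2 in all 4 groups, the block took the wild-type response (-0.36) from an adjusted p of 0.425 to 0.0175 and the difference between the treated strains (0.56) from 0.307 to 0.0075, both short of the fold thresholds.

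The sign of small values turned as follows. Rescaled to the same total, the response in Δtop1 cells was -0.032 for gpd2 and -0.19 for dak2, and the difference between treated strains was 0.011 for tps1, 0.055 for ntp1 and 0.033 for dak1. With the same upper quartile, the Δtop1 response was -0.060 for gpd2 and -0.22 for dak2, and for dak2 -0.014 with edgeR. With quantile normalization, the Δtop1 response of gpd2 was -0.18, the difference between treated strains was 0.050 for tps1, 0.23 for ntp1 and 0.15 for dak1, and the interaction was 0.10 for tpp1, 0.11 for ntp1 and 0.10 for dak1.

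With a library left out, the wild-type response of dak2 ran from -0.85 to 0.14, and the Δtop1 response from -0.055 to 0.39 for gpd2 and from -0.31 to 0.32 for dak2. The untreated strain difference ran from -0.037 to 0.31 for ntp1, -0.44 to 0.13 for gpd2, -0.43 to 0.14 for gld1, -0.12 to 0.24 for dak1 and -0.30 to 0.69 for dak2. The treated one ran from -0.093 to 0.11 for tpp1, -0.053 to 0.070 for gpd1 and -0.34 to 0.11 for dak1, and the interaction from -0.40 to 0.050 for dak1 and -0.13 to 0.86 for dak2. Why these values moved was not tested.

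Of the substrate genes, 4 called higher in wild-type became 2 with the same total or upper quartile and 1 with quantile normalization. The wild-type value of pgi1 was 0.89 without replicate 1 of untreated and 0.99 without replicate 2 of treated wild-type, and that of gpd3 was 0.89 without replicate 2 of untreated and 0.72 without replicate 1 of treated wild-type. Of the glycerol list, 1 gene (gup1) was called lower in Δtop1 cells with the same total or upper quartile, and otherwise 0.

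Per kb of coding sequence in place of the spliced transcript, gpd2 stood above dak1 in treated wild-type cells (7807 and 7006 normalized counts per kb, replicates overlapping) and in untreated Δtop1 cells (3769 and 3047).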
